A study of Homo sapiens with 6 samples.

Results

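RNA-seq was carried out on an immortalized human ventricular cardiomyocyte line in which CIRBP had been knocked down by siRNA (SiCIRBP, 3 libraries) or which had received a negative control siRNA (NC, 3 libraries), and the genes of cholesterol and fatty acid synthesis were examined. CIRBP is an RNA-binding protein that is induced by cold and other stresses and acts on the stability and translation of mRNAs. The labels name the cells T0519, whereas the study's text on the sequencing names AC16, another immortalized human ventricular line. Both groups were untreated apart from the siRNA as far as the labels say, and the time after transfection is not given in the sources used here. Within each group the libraries are numbered 1 to 3, but the labels do not say whether they came from separate cultures, so the p-values measure the spread between these libraries, which may be technical. The genes were taken from a list of 36 names, and 35 of them had at least 10 estimated counts in at least 3 of the 6 libraries. Of 58884 genes in the table, 15296 had as many counts. ABCG1, a sterol exporter, did not, with between 0.0656 and 0.249 normalized counts (CPM, counts scaled by TMM to a common library size) in any library.

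Cholesterol is built from acetyl-CoA. The mevalonate pathway turns it into isoprenoid units, which are joined to squalene, and squalene is closed to a ring and trimmed to cholesterol. Fatty acids are built from the same acetyl-CoA and are then elongated and desaturated. The transcription factors SREBF1 and SREBF2 (SREBP proteins) drive both branches. When sterols are plentiful, the escort protein SCAP and its anchors INSIG1 and INSIG2 hold the SREBP proteins in the endoplasmic reticulum. INSIG1 is itself a SREBP target, as are most of the enzymes, while ABCA1 and MYLIP are targets of the oxysterol receptor LXR.

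The libraries held between 25726259 and 29919566 estimated counts. CIRBP, the targeted transcript, lay between 85.8 and 91.0 CPM in the NC libraries and at 54.8, 24.3 and 46.3 CPM in SiCIRBP_1, SiCIRBP_2 and SiCIRBP_3. The study left NC_1 and SiCIRBP_2 out of its test because their expression values stood apart, so that the libraries were chosen on the values tested. The values below are for the 4 libraries it kept (NC_2, NC_3, SiCIRBP_1 and SiCIRBP_3), with the values over all 6 beside them. SiCIRBP_2 stood apart in other genes as well. Its 20 interferon-stimulated genes had a median of 3.64 above the NC mean on the log2(CPM + 1) scale, against -0.86 in SiCIRBP_1 and 0.88 in SiCIRBP_3. Its summed smooth muscle markers, mostly TAGLN, reached 960 CPM, against 143 and 200.3 CPM in the other SiCIRBP libraries and 234 to 252 CPM in NC. When genes were divided into 4 groups by transcript length, SiCIRBP_2 had a median of 0.18 above the NC mean in the group of shortest and -0.26 in that of longest transcripts. The tilt was smaller but in the same direction in SiCIRBP_1 (0.09 and -0.12), SiCIRBP_3 (0.06 and -0.10) and NC_1 (0.04 and -0.04). It was slight and opposite in NC_2 (-0.0048 and 0.02) and NC_3 (-0.03 and 0.02), so it runs along the comparison of the 4 libraries. Of 14 cardiomyocyte markers, 10 had under 10 counts in every library, and MYH6, MYL2, RYR2 and PLN were at 0 in all 6, whereas summed fibroblast markers reached between 2171 and 6052 CPM. Summed cardiomyocyte markers, mostly GATA4 and ACTN2, lay between 111 and 142 CPM in the NC and between 74.6 and 103 CPM in the SiCIRBP libraries. Their part in the values below was not tested, and in bulk RNA fewer cells of a type cannot be told apart from less RNA per cell.

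Over the 4 libraries, every sterol synthesis enzyme that passed the test was higher in SiCIRBP (6 of 18, 33.3%, with 0 lower). The sterol sensor INSIG1 was also higher, and the transcription factor SREBF2, the transporter NPC1 and the desaturase FADS1 were lower. Of 34 genes tested, 7 rose (20.6%, against 9.62% of all 15421 genes tested) and 3 fell (8.82%, against 9.76%), at an adjusted p under 0.05 in edgeR's quasi-likelihood test. ELOVL6, at between 0.274 and 0.661 CPM, had too few counts to be tested over the 4 libraries. No gene of the pathway passed with a 2-fold change, which 1.82% of all genes did upward and 1.80% downward. The median log2 fold change was -0.13 over the 34 genes and -0.0020 over all genes tested.

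With all 6 libraries, edgeR called none of the 35 genes in either direction. It also called none of all 15217 genes tested (0% higher and 0% lower). At an unadjusted p under 0.05, edgeR gave 6 of the 35 higher and 5 lower, against 12.1% and 11.6% of all genes. At an adjusted p under 0.05, DESeq2 called EBP higher and FADS1 and SCD lower, and among all genes it called 4.40% higher and 4.90% lower. In 6 of the 35 genes every SiCIRBP library lay above every NC library (ACAT2, HMGCS1, PMVK, FDPS, NSDHL and EBP), and in 7 every SiCIRBP library lay below (MSMO1, INSIG2, ACACA, SCD, FADS1, ACLY and LPIN1). The same held for 16.2% and 16.6% of all genes, so these counts are near the background. For each of these genes the exact permutation test over 3 against 3 libraries gave its smallest possible p of 0.1. The other 22 genes overlapped between the groups.

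**Figure D1:**
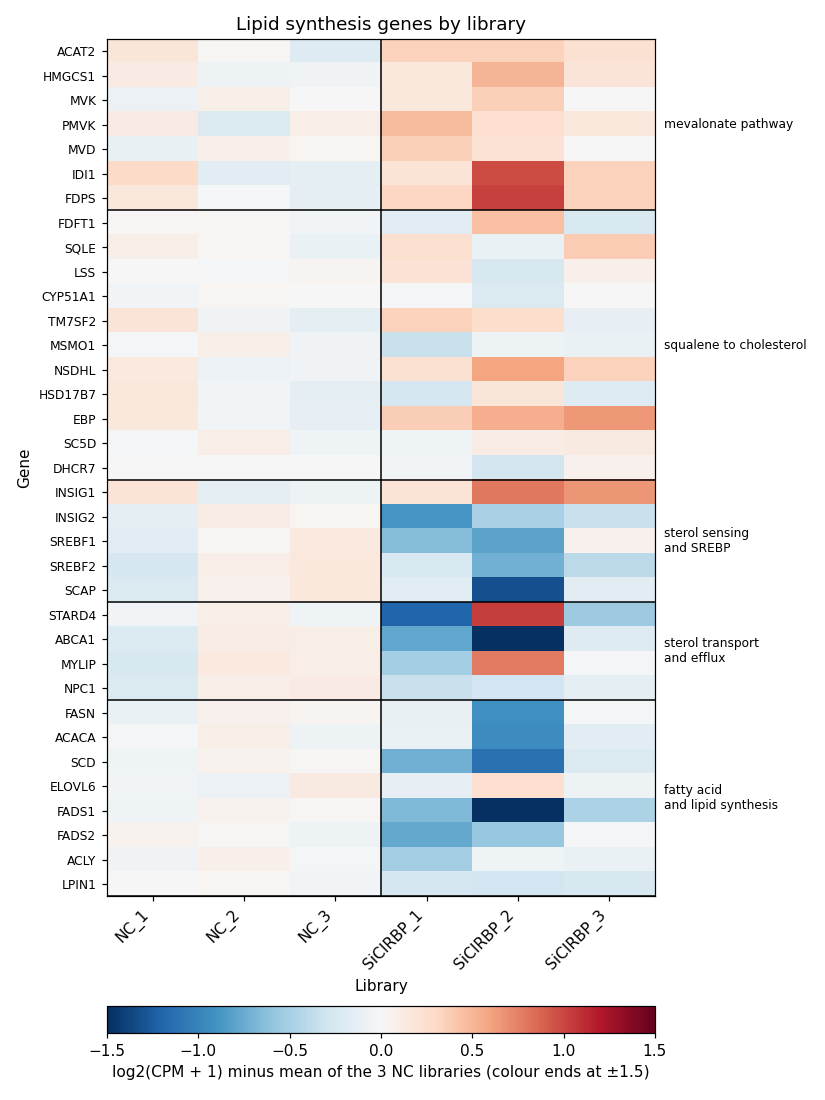
Level of 35 lipid synthesis genes in each library, as log2(CPM + 1) minus the mean of the 3 NC libraries, with libraries as columns, genes as rows, red for higher and blue for lower. The 7 mevalonate genes are above 0 in every SiCIRBP library, and SiCIRBP_2 holds the darkest cells in both directions.

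Per transcript length, the levels spanned a wide range. The fatty acid desaturase SCD had the highest mean deposited TPM over the 6 libraries, with 300.3 ± 14.7 in NC and 178 ± 64.8 in SiCIRBP (SD, n = 3). The farnesyl diphosphate synthase FDPS was next by that mean, with 173 ± 19.3 in NC and 232 ± 51.4 in SiCIRBP, and in SiCIRBP these top levels did not differ beyond their spread. The fatty acid synthase FASN was the third at 156 ± 7.52 and 136 ± 45.7. At the other end stood the transport genes STARD4, MYLIP and ABCA1, with TPM means over 6 libraries of 2.95, 3.06 and 4.72, and the elongase ELOVL6 at 0.133. The SREBP genes had near-equal levels, with means over 6 libraries of 76.5 for SREBF1 and 75.3 for SREBF2. INSIG1 had a mean of 24.4 TPM and INSIG2 of 4.90.

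**Figure D2:**
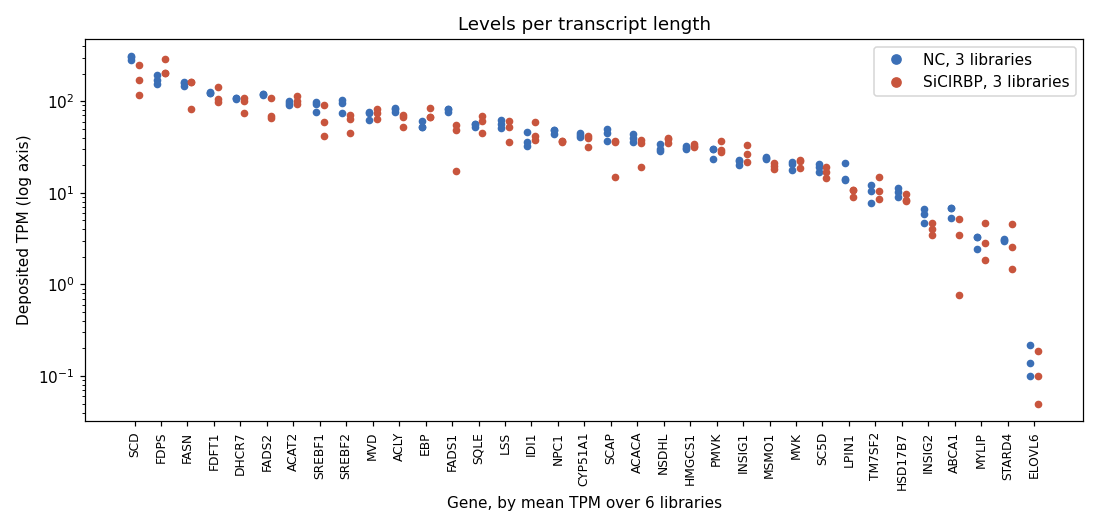
Deposited TPM (log axis) of each gene in the 3 NC and the 3 SiCIRBP libraries, with genes in order of their mean over the 6 libraries. SCD has the highest and ELOVL6 the lowest mean, and ABCA1 and FADS1 have 1 SiCIRBP library far under the others.

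Transcripts that move together can share promoter elements, so the windows from 250 bases before to 50 after the transcription start were searched on both strands for the letters of 4 elements. RefSeq (GRCh38.p14) gave 43 windows for 31 of the genes. The NF-Y box CCAAT, bound by a factor that acts with SREBP, was in 58.1% of these windows, against 34.6% of all 35116 windows. It was present for 5 of the 6 mevalonate genes with a window and 8 of 9 genes from squalene to cholesterol. The same held for 2 of 5 sensing and SREBP genes, 2 of 4 transport genes and 4 of 7 fatty acid genes. The GC box GGGCGG was in 88.4% against 45% of windows, and the E-box CACGTG in 14% against 7.26%. The sterol regulatory element, searched as TCACNCCAC, was in 1 of the 43 windows, that of SREBF2, and in 1.13% of all. A match is a description of the letters and not of a bound site. Shown here are the stretches around these matches, with the matches in capitals. The genes are the SREBP gene that fell, 3 genes that rose (IDI1, NSDHL and INSIG1), and STARD4 and SCD. The value of STARD4 turns on SiCIRBP_2, whereas SCD was lower in every SiCIRBP library but did not pass in edgeR. ATTGG is CCAAT on the other strand.
SREBF2, chr22:41832962-41833013, plus strand: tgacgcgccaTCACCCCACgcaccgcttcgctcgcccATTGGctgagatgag
IDI1, chr10:1049222-1049344, minus strand: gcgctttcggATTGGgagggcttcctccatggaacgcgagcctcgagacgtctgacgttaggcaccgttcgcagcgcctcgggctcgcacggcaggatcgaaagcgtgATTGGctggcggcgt
NSDHL, chrX:152830825-152830966, plus strand: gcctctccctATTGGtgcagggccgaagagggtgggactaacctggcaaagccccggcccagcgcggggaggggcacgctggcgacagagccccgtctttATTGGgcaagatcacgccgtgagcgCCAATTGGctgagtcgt
INSIG1, chr7:155297698-155297722, plus strand: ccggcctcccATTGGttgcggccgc
STARD4, chr5:111512651-111512706, minus strand: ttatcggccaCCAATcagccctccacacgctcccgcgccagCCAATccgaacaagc
SCD, chr10:100346994-100347061, plus strand: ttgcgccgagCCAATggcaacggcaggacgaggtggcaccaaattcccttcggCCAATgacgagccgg
The SREBF2 stretch holds the sterol element and an NF-Y box. In the stretches shown, NSDHL has 4 NF-Y matches, of which the last pair shown overlap, INSIG1 has 1, and IDI1, STARD4 and SCD have 2 each. NF-Y matches were thus present in genes that rose (IDI1), in a gene that fell (SREBF2) and in genes that edgeR called in neither direction (STARD4, SCD). DESeq2 over the 4 libraries called both STARD4 and SCD lower.

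In the mevalonate pathway, all 7 genes had a positive log2 fold change over the 4 libraries (0.05 to 0.43, median 0.38) and over the 6 (0.19 to 0.60, median 0.30). Of the 7, ACAT2, IDI1 and FDPS rose at an adjusted p under 0.05 over the 4 libraries (42.9%, against 9.62% of all genes tested). None rose over the 6, where edgeR called no gene at all. On the deposited TPM of the 4 libraries, with limma on log2(TPM + 1), 5 of the 7 were positive (MVK was at -0.05 and MVD at -0.06), the median was 0.20 and none passed. With offsets for length and GC content over the 4 libraries, all 7 stayed positive and the median was 0.28. ACAT2, IDI1 and FDPS also passed in that fit (42.9%, against 9.74% of all genes tested), with FDPS at 0.32. In every SiCIRBP library all 7 lay above the NC mean, with list medians of 0.31 in SiCIRBP_1, 0.35 in SiCIRBP_2 and 0.19 in SiCIRBP_3 on the log2(CPM + 1) scale. Among the NC libraries the list median was 0.12 in NC_1, -0.04 in NC_2 and -0.05 in NC_3. FDPS joins isoprenoid units to farnesyl diphosphate. It had 128, 111 and 104 CPM in NC_1, NC_2 and NC_3 and 141, 234 and 145 CPM in SiCIRBP_1, SiCIRBP_2 and SiCIRBP_3. Every SiCIRBP library was above every NC library, and SiCIRBP_2 was well above the rest. The log2 fold change of FDPS was 0.41 ± 0.08 (SE, edgeR adjusted p = 0.0204) over the 4 libraries and 0.60 ± 0.21 (adjusted p = 0.152) over the 6.

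IDI1 interconverts the isoprenoid building blocks that FDPS joins. Its levels were 57.9, 42.2 and 42.9 CPM in NC_1 to NC_3 and 54.5, 93.5 and 60.4 CPM in SiCIRBP_1 to SiCIRBP_3. NC_1 lay above SiCIRBP_1, so the groups overlapped once the library left out by the study was counted. The fold change was 0.43 ± 0.10 (log2, SE, edgeR adjusted p = 0.0282) over the 4 libraries and 0.54 ± 0.23 (adjusted p = 0.199) over the 6. ACAT2, the thiolase that condenses acetyl-CoA in the first step, had 183, 163 and 141 CPM in the NC libraries and 204, 206 and 190 CPM in the SiCIRBP libraries. The groups did not overlap, with NC_1 the nearest NC library. ACAT2 rose by 0.38 ± 0.10 (log2, SE, edgeR adjusted p = 0.0403) over the 4 libraries, with 0.30 ± 0.13 (adjusted p = 0.201) over the 6. Its exons overlap those of SOD2, SOD2-OT1 and TCP1 on the opposite strand (26.5%, 33.9% and 9.2% of its exonic bases). Whether the counting used strand is not given in the sources used here, so reads in these stretches cannot be assigned with certainty. TCP1 had between 410 and 471 CPM in the NC and between 478 and 511 CPM in the SiCIRBP libraries. SOD2 had 15.8, 14.6 and 10.4 CPM in NC and 16.1, 18.2 and 20.8 CPM in SiCIRBP. SOD2-OT1 had at most 0.103 CPM. TCP1 and SOD2 were thus also higher in every SiCIRBP library, and their part in the ACAT2 value was not tested.

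HMGCS1, which makes HMG-CoA, PMVK and MVK, the mevalonate kinases, and MVD, the decarboxylase, did not pass the test. HMGCS1 had 55.7, 48.5 and 49.4 CPM in NC and 56.9, 72.9 and 58.4 CPM in SiCIRBP, without overlap (log2 fold change 0.24 ± 0.09, SE, edgeR adjusted p = 0.101). PMVK had 17.1, 13.3 and 16.8 CPM in NC and 22.1, 18.8 and 17.5 CPM in SiCIRBP (0.40 ± 0.17, adjusted p = 0.151). Their groups were apart by a small margin in each case. MVK and MVD had log2 fold changes of 0.05 ± 0.11 and 0.14 ± 0.13. Exons of FDPS, IDI1 and HMGCS1 overlap opposite-strand transcripts by 18.6%, 14.8% and 15% of their bases. These partners were low: RUSC1-AS1 lay between 5.41 and 7.11 CPM, IDI2-AS1 between 0 and 0.205 CPM, and AC114947.2 at 0 in every library.

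From squalene to cholesterol the genes were mixed. Of 11, 3 rose over the 4 libraries (SQLE, NSDHL and EBP, 27.3%, against 9.62% of all genes tested) and none fell (against 9.76%). The list median was 0.02, with 7 positive and 4 negative. With limma on log2(TPM + 1) of the 4 libraries, 4 were positive and 7 negative, the median was -0.07 and none passed. Offsets for length and GC content over the 4 libraries left 5 positive and 6 negative. In that fit 2 rose (18.2%, against 9.74% of all genes tested). EBP, the sterol isomerase that moves the ring double bond, had the largest positive fold change of the 34 genes over the 4 libraries, though not over the 6. Its levels were 37.7, 32.7 and 30.8 CPM in NC_1 to NC_3 and 43.8, 49.4 and 53.2 CPM in SiCIRBP_1 to SiCIRBP_3. The groups did not overlap, and SiCIRBP_2 lay between the other SiCIRBP libraries. EBP rose by 0.61 ± 0.12 (log2, SE, edgeR adjusted p = 0.0216) over the 4 libraries. Over the 6 libraries the value was 0.53 ± 0.14, at an adjusted p of 0.106 in edgeR and 0.0233 in DESeq2.

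NSDHL, a dehydrogenase in the removal of methyl groups from the sterol ring, had 39.9, 33.8 and 34.5 CPM in the NC libraries and 42.2, 54.9 and 46.0 CPM in the SiCIRBP libraries. Again every SiCIRBP library was the higher, with NC_1 the nearest NC library. It rose by 0.37 ± 0.10 (log2, SE, edgeR adjusted p = 0.0476) over the 4 libraries, with 0.40 ± 0.14 (adjusted p = 0.158) over the 6. Offsets for transcript length and GC content took the value over the 4 to 0.29, at an adjusted p of 0.0920. SQLE, the epoxidase that opens this stretch of the pathway and is one of its slow steps, behaved differently. It had 113, 107 and 99.6 CPM in NC and 126, 99.7 and 139 CPM in SiCIRBP, so that SiCIRBP_2 fell among the NC libraries. Its rise of 0.36 ± 0.09 (log2, SE, edgeR adjusted p = 0.0384) over the 4 libraries became 0.19 ± 0.15 (adjusted p = 0.437) over the 6.

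The remaining 8 genes of this stretch had fold changes between -0.23 and 0.25 (log2) and did not pass. They were the squalene synthase FDFT1, the cyclase LSS, the demethylase CYP51A1, the reductases TM7SF2, HSD17B7 and DHCR7, the methyl oxidase MSMO1 and the desaturase SC5D. FDFT1 was split between the SiCIRBP libraries, with 123, 190 and 118 CPM against 140, 141 and 135 CPM in NC. SiCIRBP_1 and SiCIRBP_3 were under, and SiCIRBP_2 was over, all NC libraries, and the log2 fold change of FDFT1 was -0.19 ± 0.08 over 4 and 0.05 ± 0.19 over 6 libraries. MSMO1 was lower in each SiCIRBP library (27.3, 32.7 and 32.2 CPM against 33.9, 36.6 and 33.2 CPM), with a log2 fold change of -0.23 over the 4 libraries at an edgeR adjusted p of 0.230. DHCR7, CYP51A1 and SC5D had log2 fold changes of 0.01 ± 0.08, -0.02 ± 0.08 and 0.02 ± 0.12. CYP51A1 shares 78.7% of its 31-base words with AC000120.2 on the same strand, which had at most 0.245 CPM, and HSD17B7 shares 19.1% with the pseudogene HSD17B7P2, which had at most 0.748 CPM. Reads in these shared stretches cannot be assigned with certainty, so the values of both genes carry that limit.

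**Figure D3:**
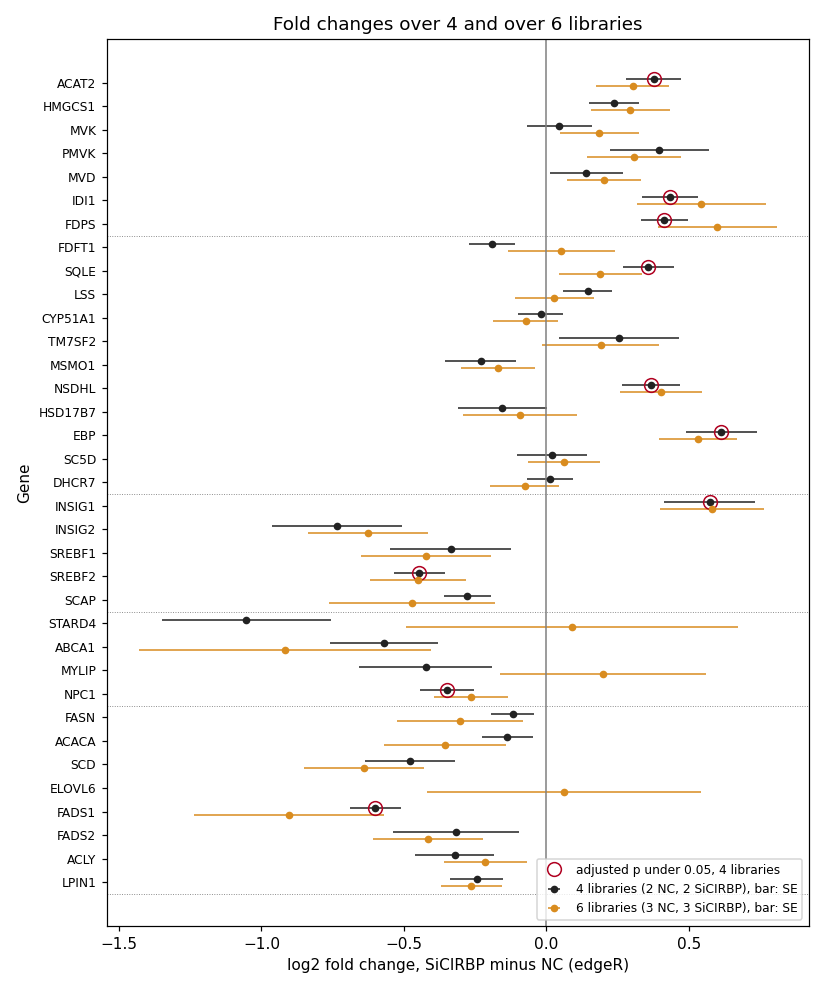
Log2 fold changes (SiCIRBP minus NC, with SE) of each gene by edgeR over 4 libraries (black) and over 6 (orange), in pathway order, with red rings on the 10 genes at an adjusted p under 0.05 over the 4 libraries. The 7 mevalonate genes are right of 0 in both fits, the fatty acid genes other than ELOVL6 are left of it, and STARD4 and MYLIP change sides between the fits.

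Among the 5 genes of sterol sensing and SREBP, INSIG1 rose and SREBF2 fell (1 gene or 20% each way, against 9.62% and 9.76% of all genes tested). The remaining 3 had negative fold changes and did not pass. INSIG1 had 41.0, 32.0 and 33.6 CPM in NC_1 to NC_3 and 41.0, 62.0 and 56.5 CPM in SiCIRBP_1 to SiCIRBP_3. NC_1 and SiCIRBP_1 were level, and the other SiCIRBP libraries were well above all others. INSIG1 rose by 0.57 ± 0.16 (log2, SE) over the 4 libraries, at an edgeR adjusted p of 0.0497, and had 0.58 ± 0.18 (adjusted p = 0.130) over the 6. INSIG2, its relative that is not driven by SREBP in the same way, moved in the other direction. It had 8.87, 10.7 and 10.1 CPM in NC and 4.90, 6.73 and 7.59 CPM in SiCIRBP. All SiCIRBP libraries lay under all NC libraries, but with a log2 fold change of -0.74 ± 0.23 the edgeR adjusted p was 0.0645 over the 4 libraries and 0.144 over the 6.

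SREBF2, the SREBP gene tied mostly to cholesterol synthesis, had 268, 343 and 358 CPM in NC_1 to NC_3 and 273, 195 and 241 CPM in SiCIRBP_1 to SiCIRBP_3. NC_1 lay within the SiCIRBP range, just under SiCIRBP_1. Its fall of 0.45 ± 0.09 on the log2 scale (SE, edgeR adjusted p = 0.0206) over the 4 libraries was of the same size over the 6, where the spread was wider (-0.45 ± 0.17, adjusted p = 0.166). SREBF1, tied mostly to fatty acid synthesis, had 129, 146 and 160 CPM in NC and 91.4, 82.1 and 151 CPM in SiCIRBP, so that SiCIRBP_3 was among the NC libraries (-0.34 ± 0.21, adjusted p = 0.298). SCAP had 85.4, 104 and 111 CPM in NC and 89.0, 39.3 and 88.6 CPM in SiCIRBP, with SiCIRBP_2 far under the rest (-0.28 ± 0.08, adjusted p = 0.0589).

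All 4 transport genes with enough counts had negative fold changes over the 4 libraries (-1.05 to -0.35). Of these, 1 passed in edgeR (25%, against 9.76% of all genes tested). DESeq2 over the same 4 libraries called 3 lower (75%, against 5.87% of the 26574 genes with any count). These were NPC1, STARD4 and ABCA1, at DESeq2 adjusted p of 0.0280, 0.0222 and 0.0135. Over the 6 libraries DESeq2 called 0 of them. NPC1, which moves cholesterol out of lysosomes, had 85.2, 105 and 108 CPM in NC and 77.9, 81.0 and 89.2 CPM in SiCIRBP. It fell by 0.35 ± 0.10 on the log2 scale (SE, edgeR adjusted p = 0.0477) over the 4 libraries and had -0.26 ± 0.13 (adjusted p = 0.258) over the 6, where NC_1 lay under SiCIRBP_3. With offsets for length and GC content the value over the 4 was -0.28 at an adjusted p of 0.0661. STARD4, a carrier of sterol between membranes, had the largest negative value and the least stable one. It had 6.13, 6.91 and 6.07 CPM in NC_1 to NC_3 and 2.23, 14.1 and 4.03 CPM in SiCIRBP_1 to SiCIRBP_3. SiCIRBP_1 and SiCIRBP_3 were under, and SiCIRBP_2 was over, all NC libraries. The log2 fold change was -1.05 ± 0.30 (edgeR adjusted p = 0.0508) over the 4 libraries and 0.09 ± 0.58 (adjusted p = 0.938) over the 6.

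ABCA1 exports cholesterol to lipoproteins and MYLIP marks lipoprotein receptors for degradation. Both are LXR targets, and in SiCIRBP_2 they went opposite ways. ABCA1 had 41.6, 52.0 and 51.2 CPM in NC and 27.6, 7.0 and 42.0 CPM in SiCIRBP. SiCIRBP_2 was lowest by far, while SiCIRBP_3 was level with NC_1. The log2 fold change was -0.57 ± 0.19 (edgeR adjusted p = 0.0775) over the 4 and -0.92 ± 0.51 (adjusted p = 0.302) over the 6 libraries. MYLIP had 5.29, 7.22 and 6.99 CPM in NC and 4.21, 11.8 and 6.38 CPM in SiCIRBP, with SiCIRBP_2 the highest of all, and values of -0.42 ± 0.23 over 4 and 0.20 ± 0.36 over 6 libraries.

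In fatty acid synthesis, FADS1 fell over the 4 libraries (1 of 7, 14.3%, against 9.76% of all genes tested). All 7 genes tested over the 4 libraries had negative fold changes (-0.60 to -0.12, median -0.32). FASN was the exception under other scalings, with 0.02 on log2(TPM + 1) and 0.05 with offsets for length and GC content. SiCIRBP_1, SiCIRBP_2 and SiCIRBP_3 had list medians of -0.38, -0.74 and -0.13, against -0.05, 0.05 and -0.0036 in NC_1 to NC_3. FADS1, a desaturase that makes polyunsaturated fatty acids, had 232, 252 and 247 CPM in NC_1 to NC_3 and 154, 61.4 and 175 CPM in SiCIRBP_1 to SiCIRBP_3. The groups were well apart, with SiCIRBP_2 far the lowest. FADS1 fell by 0.60 ± 0.09 on the log2 scale (SE, edgeR adjusted p = 0.0106) over the 4 libraries. Over the 6 it was -0.90 ± 0.33, at an adjusted p of 0.165 in edgeR and 0.0456 in DESeq2. FADS2, its neighbour on chromosome 11 and the partner enzyme of the same route, had 249, 244 and 228 CPM in NC and 141, 162 and 238 CPM in SiCIRBP. SiCIRBP_3 was among the NC libraries, and the value of -0.32 ± 0.22 did not pass (adjusted p = 0.339). FADS1 and FADS2 share 490 exonic bases on opposite strands (4.8% and 4.4% of each).

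SCD, which makes monounsaturated fatty acids, had 1099, 1190 and 1159 CPM in NC and 694, 530 and 990 CPM in SiCIRBP. All SiCIRBP libraries were lower, but SiCIRBP_3 by much less than the others. The log2 fold change was -0.48 ± 0.16 (edgeR adjusted p = 0.0757) over the 4 libraries and -0.64 ± 0.21 (adjusted p = 0.140, DESeq2 0.0499) over the 6. ACLY, which makes cytosolic acetyl-CoA, ACACA, which makes malonyl-CoA, and LPIN1, a phosphatidate phosphatase, were also lower in every SiCIRBP library. Their log2 fold changes over the 4 libraries were -0.32 ± 0.14, -0.14 ± 0.09 and -0.25 ± 0.09, and none passed. LPIN1 had the tightest groups in CPM, with 47.1, 47.7 and 45.7 in NC and 39.2, 38.3 and 39.5 in SiCIRBP. In deposited TPM its NC libraries were further apart, at 21.2, 14.3 and 13.8. Offsets for length and GC content took its log2 fold change over the 4 libraries to -0.16 (edgeR adjusted p = 0.273). FASN had 564, 635 and 622 CPM in NC and 562, 319 and 594 CPM in SiCIRBP, so that it was low in SiCIRBP_2 and SiCIRBP_1 was level with NC_1 (-0.12 ± 0.08). ACACA showed the same split, with 144, 155 and 138 CPM in NC and 135, 74.9 and 130 CPM in SiCIRBP.

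**Figure D4:**
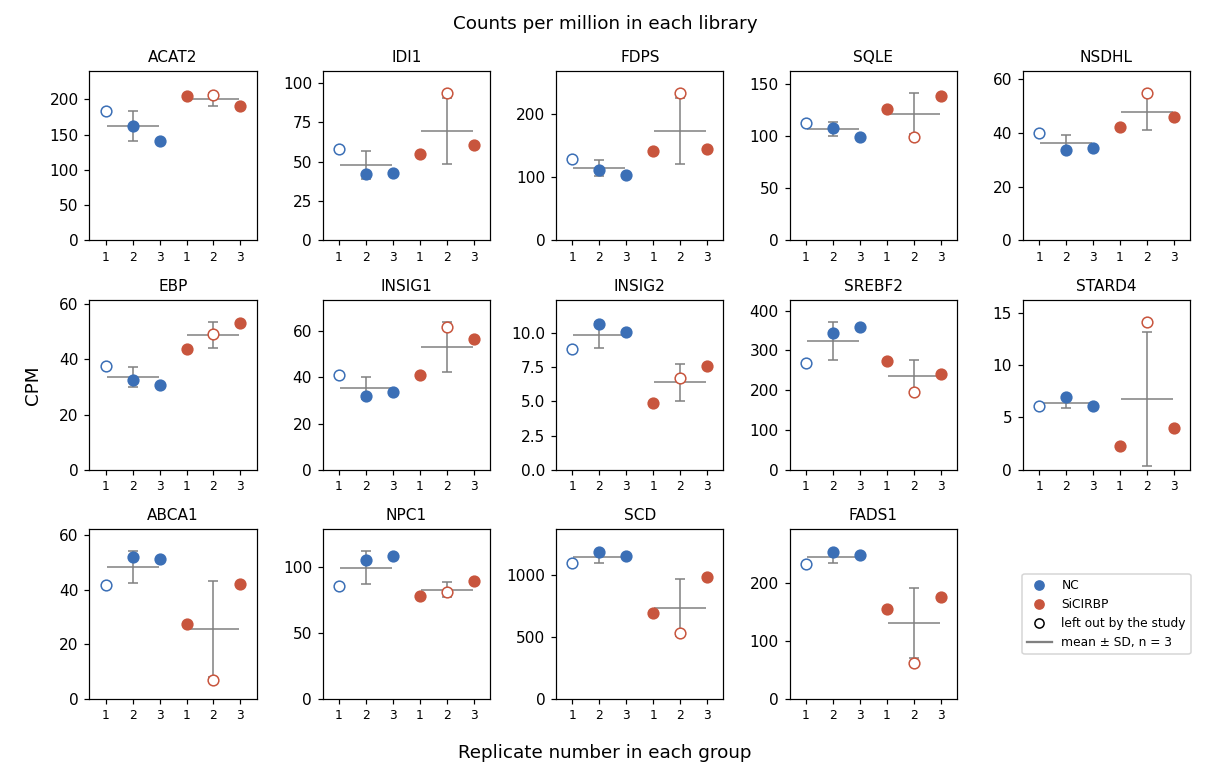
CPM of 14 genes in each library (each panel starts at 0), with NC in blue, SiCIRBP in red, open circles for the libraries the study left out, and grey bars for mean ± SD (n = 3). EBP, FDPS, NSDHL and ACAT2 are higher and INSIG2, SCD and FADS1 lower in every SiCIRBP library, while STARD4 is at 14.1 CPM in SiCIRBP_2 alone.

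The libraries that the study left out give values that did not enter the test over the 4. They are set here against NC_2 and NC_3, whose values did enter it and helped to pick the genes. A left-out library can lie beyond both through that choice alone, so these positions are a description and not independent support. NC_1 lay nearer to SiCIRBP than the other NC libraries did. For each of the 7 genes that rose, it was above both NC_2 and NC_3, and for each of the 3 that fell it was below both. The same held for 89.2% of all genes called higher and 92.8% of those called lower, so the lipid genes did the same as most genes called. SiCIRBP_2 was above NC_2 and NC_3 for 6 of the 7 genes that rose, with SQLE the exception, and below both for all 3 that fell, against 84.7% and 87.9% of all genes called. Integrated stress response genes also differed between the libraries, and their part in the lipid values was not tested. Their list median was -0.38 in NC_1, 0.13 in NC_2, 0.25 in NC_3, -0.08 in SiCIRBP_1, 0.20 in SiCIRBP_2 and -0.42 in SiCIRBP_3. In SiCIRBP_2 the low values of SCAP, ABCA1, FASN, ACACA and FADS1 came beside its high interferon-stimulated genes (summed level 5199 CPM, against 395 to 421 CPM in NC) and its low long transcripts. Offsets for length and GC content over the 6 libraries took the log2 fold change of FASN from -0.30 to -0.04 and that of ACACA from -0.36 to -0.25. SCAP went from -0.47 to -0.43, ABCA1 from -0.92 to -0.81 and FADS1 from -0.90 to -0.88. Over the 4 libraries FASN changed sign with the offsets (0.05) and ACACA was at -0.0044. The part of the interferon-stimulated genes was not tested. With offsets for length and GC content over the 4 libraries, 6 of the 34 genes were higher (17.6%, against 9.74% of all genes tested). In the same fit 4 were lower (11.8%, against 8.5%).

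**Figure D5:**
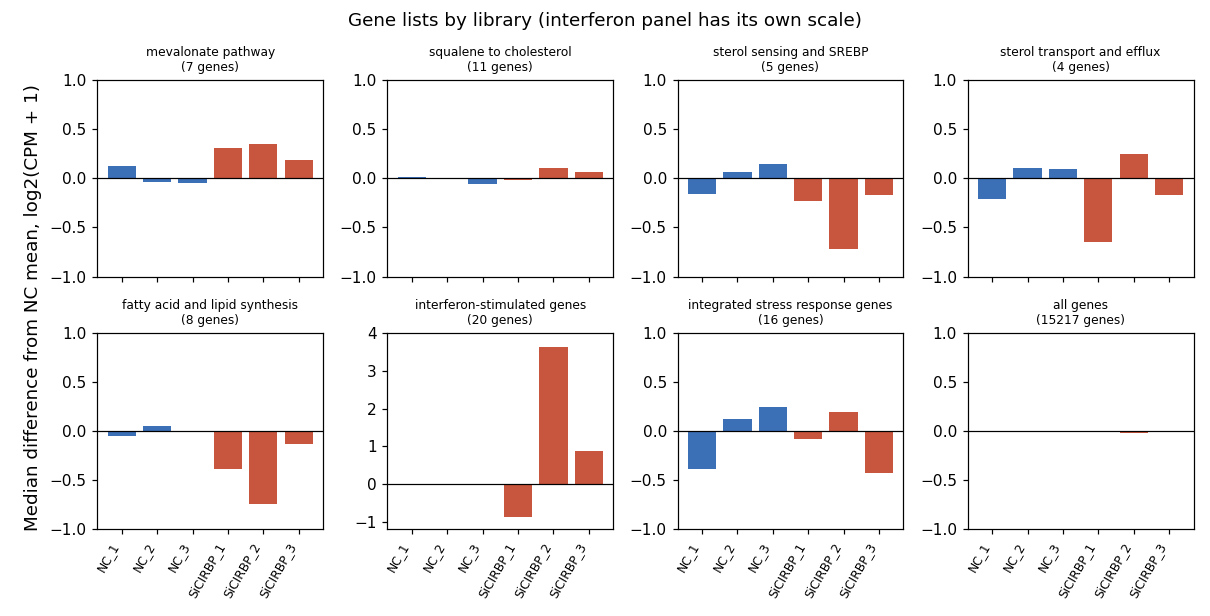
Median difference from the NC mean, on the log2(CPM + 1) scale, of 5 lists of lipid genes, of interferon-stimulated and integrated stress response genes, and of all genes, in each library. Mevalonate genes are above 0 and fatty acid genes below 0 in all 3 SiCIRBP libraries, whereas interferon-stimulated genes stand at 3.64 in SiCIRBP_2.

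Of 77 other genes of the same pathways tested over the 4 libraries, 6 rose (7.79%, against 9.62% of all genes) and 10 fell (13%, against 9.76%), with a median of -0.02. Both shares are near the background. In the isoprenoid branches, which use the products of FDPS, PDSS1 of coenzyme Q synthesis and the methyltransferase ICMT rose, and RABGGTA, which attaches lipids to Rab proteins, fell. Of 12 genes that process or degrade the SREBP machinery, 2 fell, RNF139, a ubiquitin ligase of the endoplasmic reticulum, among them, and none rose. VLDLR, a lipoprotein receptor, was the single gene called among 14 of sterol handling, and it was lower. In fatty acid elongation and activation, ELOVL1, ELOVL3 and HACD3 rose, while ELOVL5 and the acyl-CoA synthetases ACSL3 and ACSL4 fell. In triglyceride and phospholipid synthesis, GPAT4 rose and AGPAT5, LPIN2 and LPIN3 fell.

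Of these 77 genes, ELOVL3 and LPIN3 passed with a 2-fold change. LPIN3, a relative of LPIN1 with the same enzyme activity, had 14.4, 13.9 and 14.3 CPM in NC and 5.89, 9.14 and 7.73 CPM in SiCIRBP. The groups were far apart, and LPIN3 fell by 1.05 ± 0.17 on the log2 scale (SE, edgeR adjusted p = 0.0137) over the 4 libraries, with -0.91 ± 0.19 (adjusted p = 0.0913) over the 6. LPIN2, by contrast, had 57.2, 81.7 and 89.4 CPM in NC and 51.7, 65.2 and 50.1 CPM in SiCIRBP, with NC_1 under SiCIRBP_2. ELOVL3, an elongase of very long chains, was scarce, with 0.946, 0.582 and 0.689 CPM in NC and 1.54, 1.40 and 1.46 CPM in SiCIRBP. It rose by 1.23 ± 0.34 (log2, SE, edgeR adjusted p = 0.0490) over the 4 libraries, with 0.98 ± 0.30 (adjusted p = 0.127) over the 6.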

How the data were processed

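Groups and replicates follow the labels. The authors deposited an estimated count and a TPM value for each gene and library, and the processing notes name fastp, HISAT and RSEM with the build hg38, without versions. Columns of the authors' own DESeq2 comparisons (fold changes and p-values) were not used. Estimated counts were rounded and tested across all genes in edgeR 4.0.16 (R 4.3.3) with TMM scaling, filterByExpr and the quasi-likelihood test, with Benjamini-Hochberg adjustment, after the procedure had been tested on simulated data. CPM are scaled by TMM over the 6 libraries. Each SE was taken as |log2 fold change| over the root of the F statistic. Exact two-sided permutation tests used scipy 1.17.1. Genes and lists were chosen with earlier results of these data known. Values per library are given for the genes called and for those named by a rule on fold change and separation, and the others followed as needed. Exon overlaps and 31-base words came from GENCODE 29. Alternatives were all 6 libraries, a replicate block, each library left out, RLE size factors, DESeq2 1.42.0, limma 3.58.1 on log2(TPM + 1), 2 other filters on low counts and, added after seeing the data, offsets for length and GC content. Some genes of the pathway are not reported here.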

Additional observations from a re-analysis of the deposited data

How the results depend on the processing

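The calls rest on which libraries are used. With all 6 libraries, edgeR called no gene of the pathway and no related gene, and 0 genes in all, either with no block or with offsets for length and GC content. Blocking by the replicate number, with or without those offsets, also gave 0 called pathway and related genes, with 1 gene higher and 0 lower among all. Over the 6 libraries, the replicate block moved the median of the pathway genes from 0.0275 to -0.0760, and with offsets from -0.0128 to -0.0449. Over the 4 libraries it was -0.128, and -0.0372 with offsets. Replicate numbers did not pair the samples (correlations of deviations -0.118, 0.00607 and -0.0264). DESeq2 over 6 libraries gave 1 pathway gene higher and 2 lower, 0 related genes higher and 3 lower, 635 genes higher and 706 lower in all, and a median of 0.0289. DESeq2 over 4 libraries gave 6 of 35 pathway genes higher (17.1%) and 7 lower (20%), 1 of them 2-fold. Those lower were INSIG2, SREBF2, STARD4, ABCA1, NPC1, SCD and FADS1. Among the 26574 genes with any count it gave 1393 higher (5.24%) and 1561 lower (5.87%). Leaving out the filter on low counts gave 11 pathway genes lower, 1 of them 2-fold, and 2492 lower in all. At least 10 counts in every library gave 4 pathway genes lower, 1 of them 2-fold, and 1524 lower in all. Limma on log2(TPM + 1) gave 0 pathway and 0 related genes higher, 2 pathway genes (SREBF2 and FADS1) and 4 related genes lower, and 433 higher and 775 lower in all. Leaving out 1 library at a time, from the 4 or from the 6, gave 0 to 12 pathway genes higher, 0 to 14 lower, 0 to 2 lower at 2-fold, 0 to 14 related genes higher, 0 to 21 lower, 0 to 3379 genes higher and 0 to 3669 lower in all, and medians from -0.176 to 0.0275. Each fit that left out 1 of the 4 had 1 library in a group, whose spread was taken from the other group alone. The numbers called in these fits shifted among all genes as well as in the pathway, so they are not a result about the pathway. The pathway median was -0.105 without NC replicate 2 and -0.176 without NC replicate 3. It was -0.0541 without SiCIRBP replicate 1 and -0.164 without SiCIRBP replicate 3. STARD4 changed sign over the 6 libraries (0.0879, in DESeq2 0.0948, with offsets 0.113), and with 1 library left out it ranged from -1.54, without SiCIRBP replicate 3 of the 4, to 0.516, without SiCIRBP replicate 1 of the 6. The cause of these changes was not tested, and each fit that leaves 1 out also has fewer libraries. Depth was sufficient for most genes, but ABCG1 and ELOVL6 lay under 1 CPM.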
